A study of Mus musculus with 12 samples.

Results

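The genes of pyroptosis and necroptosis described here are Casp1, Casp4, Casp8, Gsdmd, Il18, Mlkl, Nlrp3, Pycard, Ripk1 and Ripk3. They were found by gene symbol in the deposited expression table, 1 entry per gene identifier, and are 10 of its 40481 genes. Expression was measured by RNA sequencing of sorted mouse hematopoietic stem cells (HSCs), in 4 groups of 3 libraries: wild-type (WT) or ETV6-RUNX1 cells, taken either from E14.5 fetal liver or from the bone marrow of mice aged 8 weeks. The ETV6-RUNX1 cells carry an inducible fusion (iE/R) of the transcription factor genes Etv6 and Runx1, a lesion known from childhood leukemia. Cells of all 4 groups, WT included, spent 3 days in expansion culture with 1 µg/mL doxycycline (DOX), the inducing drug, so no group shows the fusion without the drug. The labels do not give the promoter that drives the fusion, the number of animals behind a library or their sex. The p-values therefore measure the spread between these libraries, which may be technical.

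Pyroptosis is a lytic, inflammatory form of cell death. A sensor such as NLRP3 binds the adaptor encoded by Pycard, which gathers and activates caspase-1. Caspase-1, or the enzyme encoded by Casp4 on sensing bacterial lipopolysaccharide, cuts gasdermin D, whose fragment opens pores in the membrane, and caspase-1 also matures interleukin-18. Necroptosis is a lytic death in which RIPK1 and RIPK3 form a complex and RIPK3 phosphorylates MLKL, which disrupts the membrane. Caspase-8 starts apoptosis and at the same time cuts RIPK1 and RIPK3, so that it restrains necroptosis. All these proteins are regulated after translation, so that a transcript level is not a measure of cell death.

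Levels are in CPM, reads scaled to a common library total, and differences are log2 fold changes of log2(CPM + 1) with their standard error (SE). The test was limma on the 14271 genes that reached 1 CPM in 3 or more libraries, with Benjamini-Hochberg adjustment over those genes, and a gene is said to rise or fall where the adjusted p is under 0.05. Of the 10 genes, 9 were tested. Each of these 9 had at least 1 CPM in every library, so none passed the filter through 1 group alone, and Nlrp3 did not pass it. Library totals were 32.3 to 64.5 M reads, and 3 reads, taken as the floor of detection, equalled 0.0465 to 0.0928 CPM.

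Runx1, a partner gene of the fusion, was higher in ETV6-RUNX1 cells of both sources, in fetal liver by 0.90 ± 0.14 (limma adjusted p = 0.000153) and in marrow by 0.81 ± 0.14 (limma adjusted p = 0.00178). Etv6, the other partner, was higher in fetal liver by 0.55 ± 0.16 (limma adjusted p = 0.0146), and its difference in marrow was 0.46 ± 0.16 (limma adjusted p = 0.0633). All 10 HSC and progenitor markers checked were present at 0.5 CPM or more in each group, but not at like levels. Their summed level in fetal liver was 1845 to 2246 CPM in WT and 3034 to 3636 CPM in ETV6-RUNX1. In bone marrow it overlapped, at 1884 to 2820 and 2375 to 2945 CPM. The list holds markers of HSCs and of progenitors together, so the sum does not tell these apart. Single markers moved in both directions in fetal liver. Slamf1 was at 57.2 to 71.6 CPM in WT and 219.6 to 265.3 CPM in ETV6-RUNX1. Hlf (122.5 to 170.8 against 340.2 to 419.6 CPM) and Mecom (51.1 to 86.9 against 259 to 320.4 CPM) were higher in ETV6-RUNX1 too. Cd48 was at 178.7 to 188.4 CPM in WT and 18.7 to 23.8 CPM in ETV6-RUNX1. Flt3 was also lower, at 15.0 to 30.4 CPM in WT and 4.71 to 8.42 CPM in ETV6-RUNX1. WT bone marrow replicate 1 stood apart from replicates 2 and 3 (chi-square per degree of freedom 163 and 171, against 30.7 between the latter). ETV6-RUNX1 bone marrow replicate 2 had a summed level of megakaryocyte markers of 2253 CPM, where the lowest library of that group had 503.8 CPM. Bone marrow calls that were lost without either library are named with their values beside them.

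The promoters of the genes are shown first, since the fusion joins parts of an ETS and a RUNX protein and since several of the genes moved together. RefSeq windows (GRCm38.p6), from 250 bases before to 50 after a transcription start, were found for 9 of the genes in 12 windows. Gsdmd had no window in the table. They were searched on both strands for TGTGGT (a RUNX motif, in 16.8% of all 32851 windows), CCGGAAGT (an ETS motif, 3.89%), the core of the interferon-stimulated response element (ISRE, GAAA, any 2 bases and GAAA again, 3.44%) and TTCNNNGAA (a STAT site, GAS, 8.3%). The RUNX motif occurred in 1 window each of 3 genes (Casp8, Il18 and Ripk3), the ISRE core and the GAS in 1 window of 1 gene (Ripk1), and the ETS motif in none. Per window the RUNX motif was in 3 of 12, too few to set apart from the 16.8% of all windows. Casp8 and Ripk3 are shown because they hold the same RUNX letters and Casp8 rose while Ripk3 did not, Mlkl because it rose with no match in its window, and Ripk1 because it alone holds the ISRE core and GAS and did not pass the test. Each run is written 5′ to 3′ along the gene's strand, and capitals mark the matches. The Casp8 window (chr1:58802252-58802501, plus strand) holds the motif 164 bases before the start, and that of Ripk3 (chr14:55788858-55789107, minus strand) 199 bases before it. The Casp8 start used here lies inside the gene, which begins at 58795374, and the bases before that position were not searched. Il18, which also rose, holds the motif 65 bases before its start and is not printed. In the Ripk1 window (chr13:34002624-34002878, plus strand, the later of its starts) GAS matches begin 108 and 11 bases before the start and the ISRE core begins 5 bases before it, sharing letters with the nearer GAS. The Mlkl window is chr8:111338206-111338455 on the minus strand. A match is a description of letters and not a bound site.
Casp8: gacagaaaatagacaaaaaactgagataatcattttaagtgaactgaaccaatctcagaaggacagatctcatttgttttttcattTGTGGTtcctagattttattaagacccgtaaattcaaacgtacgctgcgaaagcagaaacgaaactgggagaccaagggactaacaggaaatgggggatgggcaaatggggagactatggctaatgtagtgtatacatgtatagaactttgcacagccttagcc
Ripk3: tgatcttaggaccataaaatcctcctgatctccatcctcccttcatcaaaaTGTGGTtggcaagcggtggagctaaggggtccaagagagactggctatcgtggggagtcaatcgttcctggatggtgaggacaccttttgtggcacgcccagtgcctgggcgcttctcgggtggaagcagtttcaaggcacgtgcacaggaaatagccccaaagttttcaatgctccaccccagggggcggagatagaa
Ripk1: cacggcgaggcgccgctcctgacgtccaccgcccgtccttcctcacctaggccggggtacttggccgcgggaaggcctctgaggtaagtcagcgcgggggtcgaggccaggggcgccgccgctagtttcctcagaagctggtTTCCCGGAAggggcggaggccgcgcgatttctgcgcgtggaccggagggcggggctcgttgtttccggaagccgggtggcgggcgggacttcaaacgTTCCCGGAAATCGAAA
Mlkl: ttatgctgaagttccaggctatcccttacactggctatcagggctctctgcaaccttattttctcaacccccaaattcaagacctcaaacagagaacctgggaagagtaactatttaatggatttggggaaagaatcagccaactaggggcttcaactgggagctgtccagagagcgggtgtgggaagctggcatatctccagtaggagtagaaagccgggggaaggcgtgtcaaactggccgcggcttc

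In fetal liver, 7 of the 9 genes tested rose in ETV6-RUNX1 cells and none fell, where 43.1% of all genes tested passed, 24.8% higher and 18.3% lower. The 7 were Casp1, Casp4, Casp8, Gsdmd, Il18, Mlkl and Pycard, by 1.80-fold (Pycard) to 5.52-fold (Il18) of the mean CPM. The median log2 fold change of the 9 genes was 1.29, beside 0.08 for all genes tested. The libraries of the genotypes did not overlap for 8 of the 9 genes, Ripk3 being the eighth, beside 55.6% of all genes, of which those higher made up 32.3% of the genes tested. In bone marrow 3 of the 9 rose (Casp4, Mlkl and Pycard) and none fell, where 19.4% of all genes passed, 14.4% higher and 4.93% lower, with a median of 0.39 beside 0.13. The genotypes did not overlap there for 5 of the 9 genes, all higher, beside 34.5% of all genes and 23.6% that were higher. The calls in bone marrow rest on the scaling. With edgeR the adjusted p was 0.0956 for Casp4, 0.179 for Mlkl and 0.0984 for Pycard, and median-of-ratios scaling likewise called none of the 3 higher. They also rest on single libraries. Leaving out either replicate 2 or replicate 3 of WT bone marrow ended all 3 calls, with limma adjusted p of 0.0534 to 0.0926, and Pycard and Mlkl without ETV6-RUNX1 bone marrow replicate 3 (limma adjusted p = 0.0701 and 0.0779). Mlkl was further lost without WT bone marrow replicate 1 (0.39; limma adjusted p = 0.0523) and without ETV6-RUNX1 bone marrow replicate 1 (limma adjusted p = 0.072). In bulk RNA, more cells of a type and more RNA per cell cannot be told apart.

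**Figure D1:**
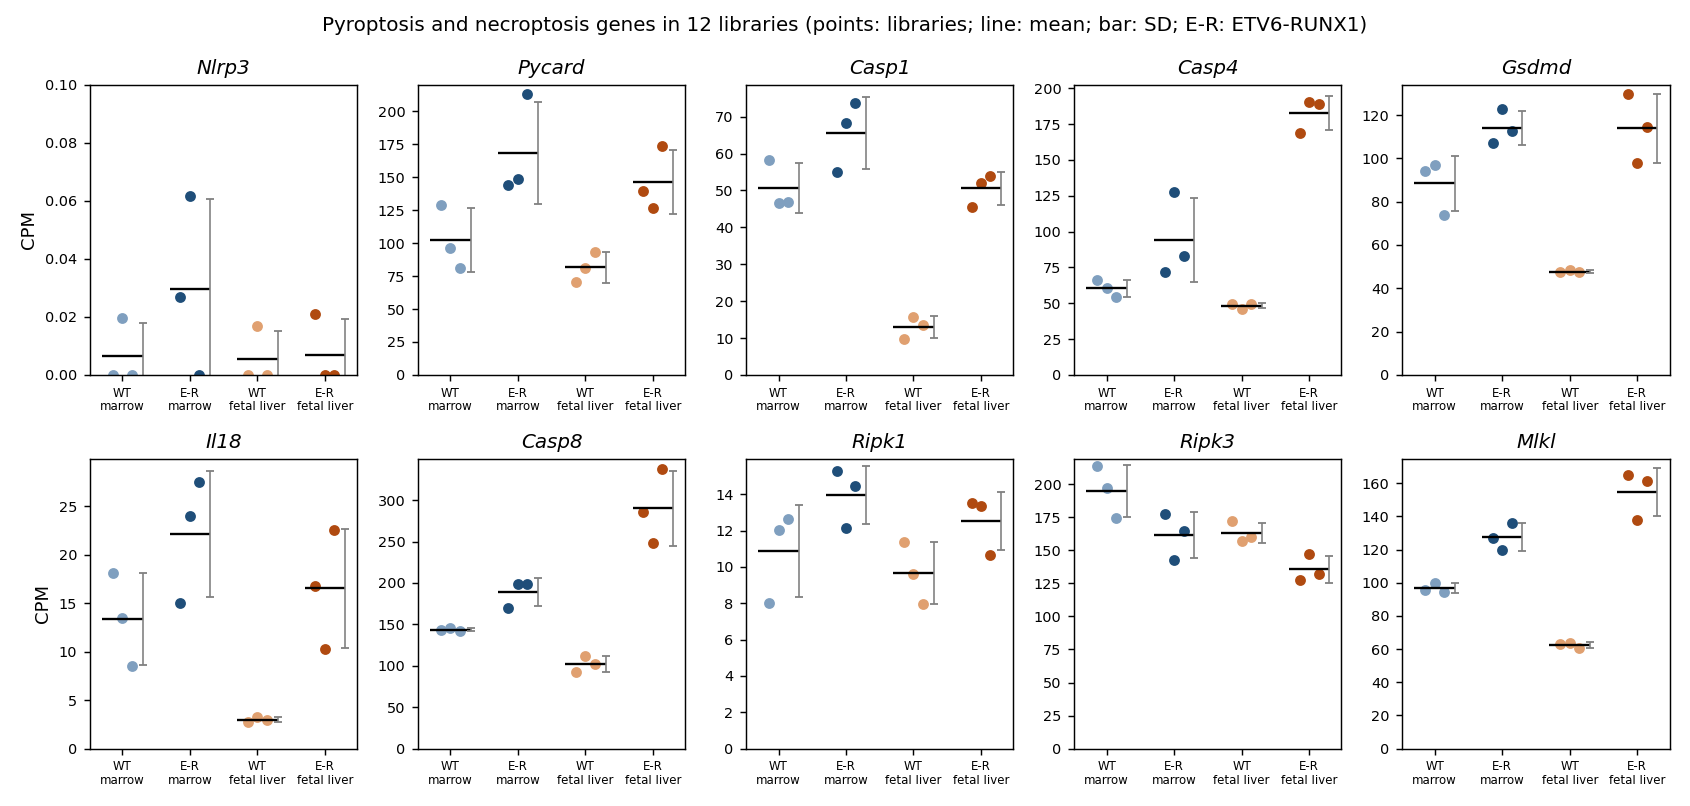
CPM of each gene (vertical axes, each from 0) in every library (points) of the 4 groups, with the group mean as a line and the SD as a bar beside it. For Casp1, WT fetal liver lies at 9.84 to 15.6 CPM, below the other 3 groups, whereas for Casp4 and Casp8 ETV6-RUNX1 fetal liver lies above all others.

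The sensor Nlrp3 (chromosome 11, 59541568 to 59566956) was close to undetected. Summed over the 3 libraries of a group, it had 3 reads in the ETV6-RUNX1 bone marrow group and 1 read in each of the other groups. Every library lay below the floor of 3 reads, and no fold is given.

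The adaptor gene Pycard (chromosome 7, 127989708 to 127993867) rose in both sources. In fetal liver it had 70.2, 81.2 and 93.3 CPM in the WT libraries and 139.4, 126.5 and 173.5 CPM in the ETV6-RUNX1 libraries. In bone marrow it had 128.8, 96.0 and 81.5 CPM in WT and 144.2, 148.3 and 212.9 CPM in ETV6-RUNX1. The genotypes did not overlap in either source, although WT bone marrow replicate 1 came near the lowest ETV6-RUNX1 library. The difference was 0.83 ± 0.20 in fetal liver (limma adjusted p = 0.00363) and 0.72 ± 0.20 in bone marrow (limma adjusted p = 0.0211). The difference between these effects was 0.11, with a 95% confidence interval of -0.48 to 0.71 (limma adjusted p = 0.836). Exons of Pycard overlap those of a gene on the opposite strand over 485 bases, and the use of strand in counting is not given in the sources used here.

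Casp1, which encodes the inflammasome's caspase, set WT fetal liver apart from the other 3 groups. Its levels were 9.84, 15.6 and 13.5 CPM in WT fetal liver and 45.6, 52.1 and 54.01 CPM in ETV6-RUNX1 fetal liver. WT bone marrow had 58.4, 46.7 and 46.8 CPM and ETV6-RUNX1 bone marrow 54.9, 68.4 and 73.6 CPM. The last 3 of these groups each overlapped the next in order of level, and WT fetal liver overlapped none. The genotype difference was 1.90 ± 0.18 in fetal liver (3.89-fold; limma adjusted p = 1.82e-06) and 0.37 ± 0.18 in bone marrow (limma adjusted p = 0.164). The effects differed by 1.54 ± 0.25 (limma adjusted p = 0.00205). Among WT cells Casp1 was 3.90-fold lower in fetal liver than in bone marrow (limma adjusted p = 9.69e-06).

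Casp4, whose mouse protein is also called caspase-11, lies 1563 bases beyond Casp1 on chromosome 9 (Casp1 5298517 to 5307265, Casp4 5308828 to 5336783) and showed another order of groups. It had 49.3, 46.3 and 49.5 CPM in WT fetal liver and 168.9, 190.6 and 189.0 CPM in ETV6-RUNX1 fetal liver. Its bone marrow levels were 66.1, 60.8 and 54.5 CPM in WT and 71.8, 127.7 and 82.9 CPM in ETV6-RUNX1. ETV6-RUNX1 fetal liver was highest, and no 2 groups overlapped. The difference was 1.90 ± 0.18 in fetal liver (3.78-fold; limma adjusted p = 1.6e-06) and 0.59 ± 0.18 in bone marrow (limma adjusted p = 0.0311). Without ETV6-RUNX1 bone marrow replicate 2, its highest library there, the latter was 0.35 (limma adjusted p = 0.126). The effects differed by 1.31 ± 0.25 (limma adjusted p = 0.00505).

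The ratio of Casp4 to Casp1 within a library, each as CPM per kb of its longest coding transcript, does not depend on the scaling between libraries. Its size depends on the lengths used, here 1435 bases for Casp4, whose exons together cover 3710 bases, and 1497 for Casp1. Fold differences of the ratio between groups do not depend on these lengths. It was 3.09 to 5.23 in WT and 3.65 to 3.86 in ETV6-RUNX1 fetal liver, against 1.18 to 1.36 in WT and 1.18 to 1.95 in ETV6-RUNX1 bone marrow. The ratio thus differed by source without overlap, 3.23-fold in WT and 2.53-fold in ETV6-RUNX1 cells. The genotypes overlapped in both sources (exact permutation p = 0.9 and 0.6). With 3 libraries against 3 the exact two-sided permutation test cannot give a p under 0.1, and over the 16 tests of 4 ratios the smallest adjusted p was 0.145.

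Gsdmd (chromosome 15, 75862327 to 75867408) encodes gasdermin D, the pore-forming substrate of these caspases. It had 47.4, 48.4 and 47.4 CPM in WT fetal liver and 129.5, 97.7 and 114.4 CPM in ETV6-RUNX1 fetal liver. In bone marrow it had 94.1, 97.1 and 74.0 CPM in WT and 107.1, 122.7 and 112.4 CPM in ETV6-RUNX1. The ETV6-RUNX1 groups reached the same mean, 113.9 ± 15.9 CPM in fetal liver and 114.1 ± 7.92 CPM in bone marrow (SD, n = 3), from different WT levels. The difference was 1.23 ± 0.14 in fetal liver (limma adjusted p = 1.21e-05) and 0.37 ± 0.14 in bone marrow (limma adjusted p = 0.078), and the effects differed by 0.86 ± 0.20 (limma adjusted p = 0.0167). Without WT bone marrow replicate 2 the test of that last difference gave a limma adjusted p of 0.0511.

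Il18 (chromosome 9, 50554827 to 50581840), the cytokine matured by caspase-1, had the lowest level per kb of transcript of the 7 genes that rose in fetal liver, in both genotypes there. It had 2.75, 3.25 and 2.98 CPM in WT fetal liver and 16.7, 10.3 and 22.5 CPM in ETV6-RUNX1 fetal liver. WT bone marrow had 18.1, 13.4 and 8.57 CPM and ETV6-RUNX1 bone marrow 15.0, 23.9 and 27.5 CPM. WT fetal liver lay below every other library, and the other 3 groups overlapped one another. The difference was 2.07 ± 0.30 in fetal liver (5.52-fold; limma adjusted p = 9.54e-05) and 0.70 ± 0.30 in bone marrow (limma adjusted p = 0.114). The difference between the effects, 1.37 ± 0.43, had a limma adjusted p of 0.0583. It passed with edgeR (1.79; adjusted p = 0.0344), with DESeq2 (1.80; adjusted p = 0.00301) and with a pseudocount of 0.1 (1.61; limma adjusted p = 0.0434), and without WT bone marrow replicate 3 (limma adjusted p = 0.0336) or ETV6-RUNX1 fetal liver replicate 2 (limma adjusted p = 0.0284).

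Casp8 (chromosome 1, 58795374 to 58847503), encodes the caspase that restrains necroptosis. It had 92.4, 112.3 and 102.0 CPM in WT fetal liver and 285.8, 247.6 and 337.7 CPM in ETV6-RUNX1 fetal liver. Its bone marrow levels were 143.2, 145.4 and 142.4 CPM in WT and 170.1, 198.2 and 198.7 CPM in ETV6-RUNX1. No 2 groups overlapped. The difference was 1.49 ± 0.13 in fetal liver (2.84-fold; limma adjusted p = 1.1e-06) and 0.39 ± 0.13 in bone marrow (limma adjusted p = 0.0545), and the effects differed by 1.10 ± 0.19 (limma adjusted p = 0.00265).

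Mlkl (chromosome 8, 111311797 to 111338177), the executioner of necroptosis, had 63.1, 63.8 and 60.6 CPM in WT fetal liver and 164.8, 138.1 and 161.5 CPM in ETV6-RUNX1 fetal liver. In bone marrow it had 95.7, 100.1 and 94.4 CPM in WT and 127.1, 119.5 and 136.3 CPM in ETV6-RUNX1. The 4 groups took the same order as for Casp4 and Casp8, without overlap. The difference was 1.29 ± 0.12 in fetal liver (limma adjusted p = 1.1e-06) and 0.39 ± 0.12 in bone marrow (limma adjusted p = 0.0287), and the effects differed by 0.90 ± 0.16 (limma adjusted p = 0.00377).

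The kinase genes that act upstream of Mlkl did not pass the test in either source. Ripk3 (chromosome 14, 55784995 to 55788865) had 172.0, 157.4 and 160.3 CPM in WT fetal liver and 127.3, 147.3 and 132.1 CPM in ETV6-RUNX1 fetal liver. In bone marrow it had 213.8, 197.1 and 174.6 CPM in WT and 177.3, 142.7 and 164.6 CPM in ETV6-RUNX1. The ETV6-RUNX1 libraries lay below the WT libraries without overlap in fetal liver and with overlap in bone marrow. The difference was -0.27 ± 0.13 in each source (limma adjusted p = 0.0991 in fetal liver and 0.14 in bone marrow). With edgeR it was -0.37 in fetal liver (adjusted p = 0.0444) and -0.43 in bone marrow (adjusted p = 0.0422), so that Ripk3 fell in both by that test, and in bone marrow DESeq2 and median-of-ratios scaling called it lower too. The effects differed by 0.0044, with a 95% interval of -0.38 to 0.38.

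Ripk1 (chromosome 13, 34002363 to 34037147) had the lowest level per kb of transcript of the kinase and caspase genes tested. It had 11.4, 9.64 and 7.99 CPM in WT fetal liver, 13.5, 13.3 and 10.7 CPM in ETV6-RUNX1 fetal liver, and in marrow 8.00, 12.0 and 12.7 CPM in WT and 15.3, 12.1 and 14.48 CPM in ETV6-RUNX1. The genotypes overlapped in both sources. The difference was 0.35 ± 0.20 in each (limma adjusted p = 0.186 in fetal liver and 0.242 in bone marrow), with 95% intervals of -0.09 to 0.78 and -0.09 to 0.79. Its exons overlap those of Serpinb6a on the opposite strand over 241 bases and a pseudogene on its own strand over 511 bases, so its low counts are uncertain.

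**Figure D2:**
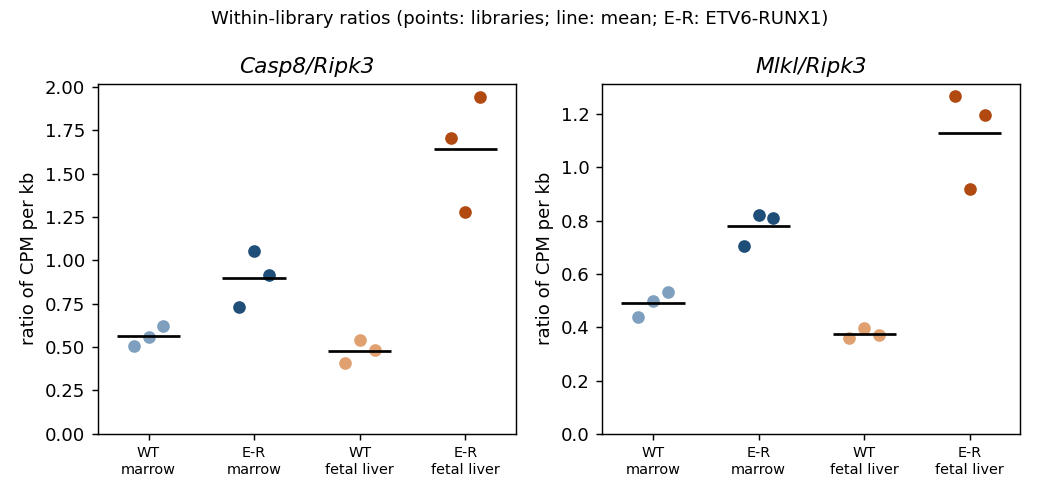
Ratio of Casp8 to Ripk3 and of Mlkl to Ripk3 within each library (points), in CPM per kb of transcript, with the group mean as a line. In both panels the ETV6-RUNX1 libraries lie above the WT libraries of the same source, and ETV6-RUNX1 fetal liver lies highest.

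The balance of these transcripts was also compared within libraries, per kb of transcript. The ratio of Casp8 to Ripk3 was 0.408, 0.542 and 0.484 in WT fetal liver and 1.71, 1.28 and 1.94 in ETV6-RUNX1 fetal liver, a 3.43-fold difference of the means. In bone marrow it was 0.509, 0.561 and 0.620 in WT and 0.729, 1.05 and 0.917 in ETV6-RUNX1, a 1.6-fold difference. The ratio of Mlkl to Ripk3 was 0.376 ± 0.0194 in WT and 1.13 ± 0.185 in ETV6-RUNX1 fetal liver, and 0.489 ± 0.0464 in WT and 0.779 ± 0.0656 in ETV6-RUNX1 bone marrow (SD, n = 3). Neither ratio overlapped between genotypes in either source. Each of these 4 comparisons had an exact permutation p of 0.1, the smallest possible, and an adjusted p of 0.145. The ratio of Gsdmd to Casp1, also tested, went the other way in fetal liver. It was 2.59 to 4.03 in WT and 1.57 to 2.37 in ETV6-RUNX1 there (exact permutation p = 0.1, adjusted p = 0.145). In bone marrow its mean was 1.47 in both genotypes.

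The genotype effect was larger in fetal liver than in bone marrow for 5 of the 9 genes (Casp1, Casp4, Casp8, Gsdmd and Mlkl), where 9.19% of all genes passed this test of the difference and 5.56% did so with a higher and 3.62% with a lower effect in fetal liver. This comparison uses the libraries of both genotype comparisons and adds no samples to them.

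**Figure D3:**
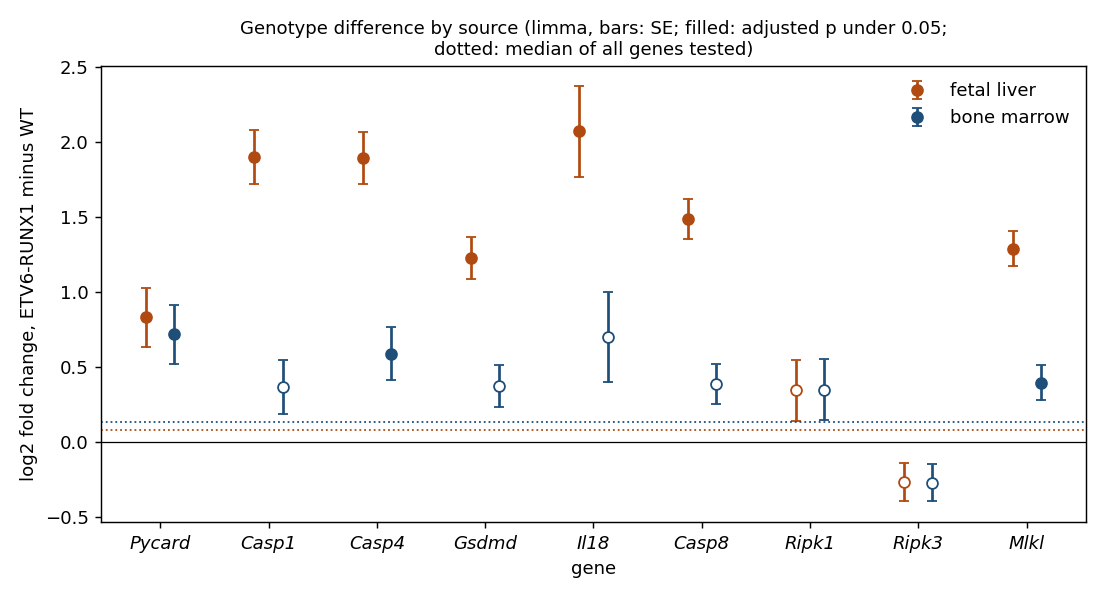
Log2 fold change of ETV6-RUNX1 against WT (vertical axis) for each gene tested (horizontal axis), in fetal liver and in bone marrow, with SE bars; filled points passed the limma test and the dotted lines mark the median of all genes tested. Casp1 lies at 1.90 in fetal liver and 0.37 in bone marrow, whereas Pycard, Ripk1 and Ripk3 lie at similar values in both.

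The sources were then compared within a genotype, using the same libraries. In WT cells 5 of the 9 genes were lower in fetal liver and none was higher, where 11.1% of all genes passed, 7.77% lower and 3.38% higher. The sources did not overlap for 7 of the 9, beside 29.5% of all genes. Casp1 (-1.90 ± 0.18) and Il18 (-1.79 ± 0.30; limma adjusted p = 0.00127) differed most, before Gsdmd (-0.87 ± 0.14; limma adjusted p = 0.00099), Mlkl (-0.62 ± 0.12; limma adjusted p = 0.00269) and Casp8 (-0.49 ± 0.13; limma adjusted p = 0.0275). The Casp8 call was lost with edgeR (adjusted p = 0.118) and without WT bone marrow replicate 2 or 3 or WT fetal liver replicate 1 or 3. In ETV6-RUNX1 cells 2 of the 9 passed, where 28.6% of all genes did so, 10.4% higher and 18.2% lower in fetal liver. Casp4 was 1.94-fold higher in fetal liver (0.99 ± 0.18; limma adjusted p = 0.000829) and Casp8 1.54-fold higher (0.61 ± 0.13; limma adjusted p = 0.00382). A share of 2 in 9 is close to that of all genes.

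Markers of other cells moved with these results. The summed level of 15 monocyte and macrophage markers was 257.3 to 318.7 CPM in WT and 780.2 to 981.1 CPM in ETV6-RUNX1 fetal liver, and 263.3 to 352.7 CPM in WT and 350.4 to 522 CPM in ETV6-RUNX1 bone marrow. Most of each sum was Lyz2, at 200.2 to 265.2 CPM in WT and 609.2 to 794.6 CPM in ETV6-RUNX1 fetal liver. In bone marrow Lyz2 overlapped, at 223.1 to 287 CPM and 239 to 399.4 CPM. Cd68 was next in fetal liver, at 38.7 to 47.1 CPM in WT and 99.25 to 109 CPM in ETV6-RUNX1. Mrc1 overlapped there, at 1.04 to 1.82 CPM and 0.377 to 2.07 CPM. C1qa, C1qb, C1qc and Marco, which mark mature macrophages, stayed below 0.5 CPM in every group. The 8 dendritic cell markers summed to 112.6 to 122.7 CPM in WT and 471.9 to 826.9 CPM in ETV6-RUNX1 fetal liver, and to 79.2 to 157.8 CPM and 177.6 to 382.5 CPM in bone marrow. Most of this was Bst2, which many cell types express, with 82.4 to 103.5 CPM in WT and 447.4 to 804 CPM in ETV6-RUNX1 fetal liver. The other 7 summed to 19.2 to 36.0 CPM and 22.8 to 24.5 CPM there, and Cd209a and Siglech were below 0.5 CPM in every group. Megakaryocyte markers summed to 3275 to 4817 CPM in WT and 8077 to 9228 CPM in ETV6-RUNX1 fetal liver, and to 1434 to 1938 CPM and 503.8 to 2253 CPM in bone marrow, where the median was lower in ETV6-RUNX1 (721.5 against 1438 CPM). Erythroid markers summed to 784.5 to 1060 CPM in WT and 1511 to 2243 CPM in ETV6-RUNX1 fetal liver, and to 273.1 to 548.5 CPM and 446.2 to 645.8 CPM in bone marrow. Neutrophil markers were lower in ETV6-RUNX1 fetal liver, at 76.4 to 99.0 CPM against 273.3 to 365.8 CPM in WT, and overlapped in bone marrow, at 193.9 to 213.7 CPM against 206.4 to 411.5 CPM. T and NK cell markers, of which Cd3d, Cd3e, Cd3g, Cd8a, Ncr1 and Trac were below 0.5 CPM in every group, summed to 53.1 to 105.3 CPM in WT and 3.11 to 5.13 CPM in ETV6-RUNX1 fetal liver, and to 89.3 to 122.4 CPM and 8.53 to 12.5 CPM in bone marrow. Most of each WT sum was Nkg7, at 48.8 to 102.5 CPM in fetal liver and 87.15 to 121.1 CPM in bone marrow. In ETV6-RUNX1 cells Nkg7 was at 0.78 to 1.41 CPM and 7.26 to 10.8 CPM. Cd4 overlapped between the genotypes in fetal liver, at 0.868 to 2.29 CPM in WT and 1.39 to 2.08 CPM in ETV6-RUNX1. Mitochondrial transcripts took 0.921% to 1.10% of the reads in ETV6-RUNX1 fetal liver and 1.34% to 1.84% in the other groups. Xist, expressed in female cells, was at 51.7 to 89.3 CPM in the fetal liver libraries and 0.175 to 1.27 CPM in those of bone marrow, so sex and source cannot be told apart. The Y-linked Ddx3y was at 23.5 to 41.5 CPM in WT and 69.1 to 75.2 CPM in ETV6-RUNX1 fetal liver. In bone marrow it was at 68.6 to 122.2 CPM in WT and 95.7 to 140.2 CPM in ETV6-RUNX1. Uty, also Y-linked, was at 9.75 to 18.7 CPM in WT and 41.5 to 47 CPM in ETV6-RUNX1 fetal liver. Whether the mix of sexes differed between the genotypes in fetal liver was not tested. The part of these shifts in the results was not tested.

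Around these genes, 102 further genes in 6 lists of the pathways were examined, of which 81 were tested. In fetal liver 42 of the 81 rose and 5 fell, and in bone marrow 23 rose and 3 fell. Over all genes tested, 24.8% rose and 18.3% fell in fetal liver, and 14.4% rose and 4.93% fell in bone marrow. The bone marrow total of 26 was 17 without WT bone marrow replicate 1 and 15 without ETV6-RUNX1 bone marrow replicate 2.

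**Figure D4:**
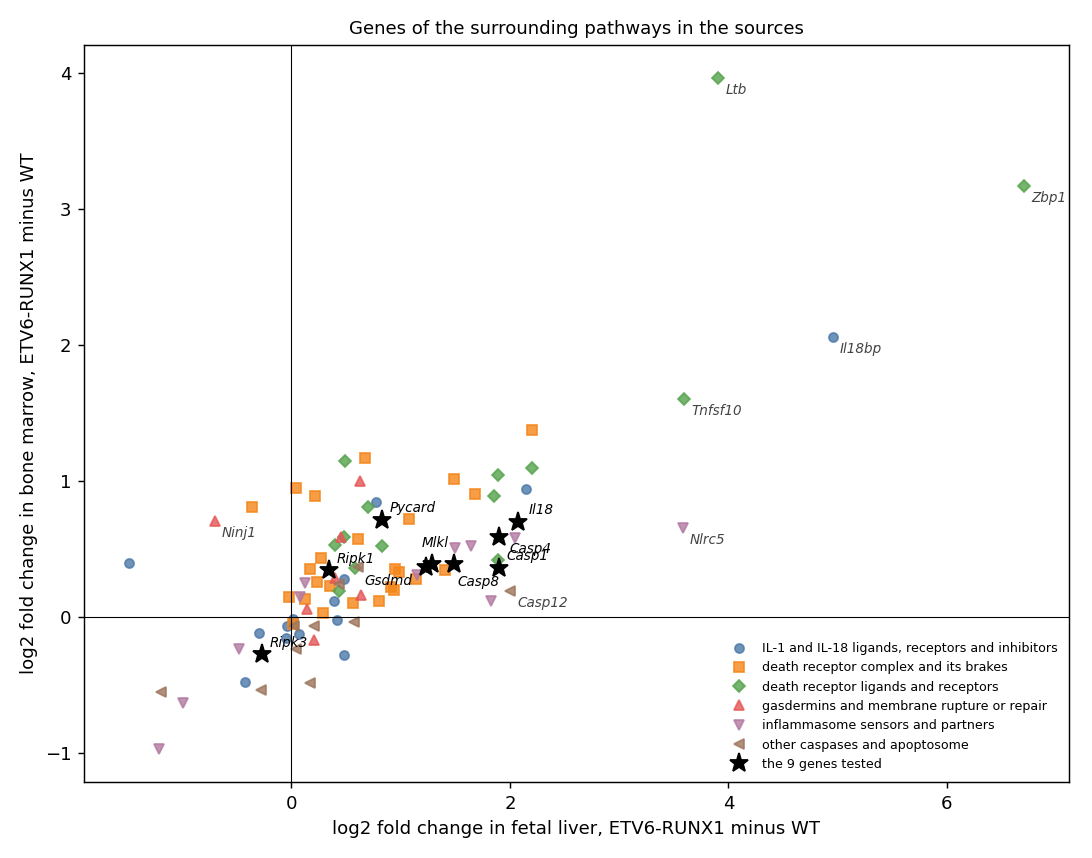
Log2 fold change of ETV6-RUNX1 against WT in fetal liver (horizontal axis) and in bone marrow (vertical axis) for the 81 pathway genes, by list, and for the 9 genes tested (stars). Zbp1, Il18bp, Tnfsf10 and Ltb lie far out in both sources, and Ninj1 lies on opposite sides of 0.

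Of 11 inflammasome sensors and partners tested, 6 rose and 2 fell in fetal liver (median 1.15), and 2 rose in bone marrow (median 0.25). Nlrc5, a regulator of MHC class I genes, rose by 3.58 ± 0.20 in fetal liver (limma adjusted p = 1.35e-08), from a mean of 8.10 to 107.8 CPM. Aim2, a sensor of cytosolic DNA that also uses Pycard, rose by 1.64 (limma adjusted p = 2.31e-06), from 15.1 to 49.3 CPM. Txnip, which binds thioredoxin, rose by 1.49 (limma adjusted p = 1.45e-05). In bone marrow Aim2 rose by 0.52 (limma adjusted p = 0.0329) and Nlrc5 by 0.66 (limma adjusted p = 0.0361), and with edgeR these had adjusted p values of 0.0874 and 0.0767. Neither passed without WT bone marrow replicate 1 (limma adjusted p = 0.0681 and 0.117) or ETV6-RUNX1 bone marrow replicate 2 (limma adjusted p = 0.128 and 0.148), and Aim2 was 0.28 with quantile scaling (limma adjusted p = 0.265).

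Of 7 genes of gasdermins and membrane rupture or repair, 3 rose and 1 fell in fetal liver (median 0.39) and 3 rose in bone marrow (median 0.29). Ninj1, which drives the final rupture of the membrane, moved in opposite directions. It fell by 0.70 in fetal liver (SE 0.13; limma adjusted p = 0.000603), from 116.4 to 71.2 CPM, and rose by 0.71 ± 0.13 in bone marrow (limma adjusted p = 0.00247), from 144.4 to 238.1 CPM. Chmp4b, of the ESCRT machinery that repairs membranes, rose by 0.63 in fetal liver (limma adjusted p = 0.0367) and by 1.006 in bone marrow (limma adjusted p = 0.00803). Of the ESCRT ATPases, Vps4b rose by 0.39 in fetal liver (limma adjusted p = 0.0403) and Vps4a by 0.59 in bone marrow (limma adjusted p = 0.044). With edgeR no gene of the list rose in fetal liver (adjusted p = 0.0583 for Chmp4b and 0.0796 for Vps4b), and none did without WT fetal liver replicate 1 or 3 or ETV6-RUNX1 fetal liver replicate 1 or 3. The bone marrow call of Vps4a was lost with edgeR (adjusted p = 0.105), without WT bone marrow replicate 1 (0.35; limma adjusted p = 0.146) and without ETV6-RUNX1 bone marrow replicate 2 (limma adjusted p = 0.0917).

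Of 14 IL-1 and IL-18 ligands, receptors and inhibitors, 4 rose and 1 fell in fetal liver (median 0.23) and 3 rose in bone marrow (median -0.02), and the share that rose in fetal liver is close to that of all genes. In fetal liver Il18bp, the secreted inhibitor of interleukin-18, rose beside Il18 itself, by 4.95 ± 0.30 (limma adjusted p = 2.44e-08), from 2.78 to 120.2 CPM. In bone marrow Il18bp rose by 2.06 (limma adjusted p = 0.000623), where Il18 did not pass (limma adjusted p = 0.114). Irak2, a signalling kinase of the IL-1 receptor, rose by 2.15 in fetal liver (limma adjusted p = 4.08e-05) and 0.94 in bone marrow (limma adjusted p = 0.0317). The latter was 0.60 without ETV6-RUNX1 bone marrow replicate 2 (limma adjusted p = 0.137) and 0.78 without WT bone marrow replicate 1 (limma adjusted p = 0.0976), and was also lost with quantile scaling (limma adjusted p = 0.113). Il1r1, the IL-1 receptor, fell by 1.49 in fetal liver (limma adjusted p = 0.00172). Irak3, a brake on IL-1 signalling, rose by 0.85 in bone marrow (limma adjusted p = 0.0439, edgeR adjusted p = 0.0749), but by 0.49 without WT bone marrow replicate 1 (limma adjusted p = 0.154), and the call was lost without ETV6-RUNX1 bone marrow replicate 2 too (limma adjusted p = 0.082). It was also called higher in fetal liver, in 14 of 21 alternatives.

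Of 14 genes tested in the list of death receptor ligands and receptors, 10 rose in fetal liver (median 1.34). In bone marrow 8 rose (median 0.85), and none fell in either source. The list also holds Ifnar1, Ifnar2, Tlr3, Tlr4, Ticam1 and Zbp1, which encode neither death receptors nor their ligands. Zbp1, a sensor of Z-form nucleic acid that engages RIPK3, had 0.0865, 0.134 and 0.062 CPM in the WT fetal liver libraries and a mean of 120.1 CPM in ETV6-RUNX1 fetal liver, a difference of 6.70 ± 0.52 (limma adjusted p = 2.62e-07). With WT levels this low the size depends on the pseudocount: it was 9.20 with a pseudocount of 0.1 and 10.19 with edgeR. In bone marrow Zbp1 rose by 3.18 (limma adjusted p = 0.00143), from a mean of 6.83 to 66.8 CPM. Tnfsf10, which encodes the death ligand TRAIL, rose by 3.60 in fetal liver (limma adjusted p = 1.21e-07) and 1.61 in bone marrow (limma adjusted p = 0.00128). Lta rose by 1.86 in fetal liver (limma adjusted p = 1.76e-05), and Ltb, its partner in the lymphotoxin complex, by 3.97 ± 0.89 in bone marrow (limma adjusted p = 0.00817). The ETV6-RUNX1 bone marrow libraries had 195.3, 450.9 and 21.5 CPM of Ltb. Its call there was lost with no filter (limma adjusted p = 0.0509). Each of these genes was called in the other source too. Leaving out a library gave 3.19 to 4.42 for Ltb in fetal liver and 0.73 to 0.98 for Lta in bone marrow.

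Of 25 genes of the death receptor complex and its brakes, 15 rose in fetal liver (median 0.61) and 7 in bone marrow (median 0.35), and none fell. Tnfaip3, which encodes the ubiquitin editor A20, rose by 2.20 in fetal liver (limma adjusted p = 6.53e-05), Traf5 by 1.41 (limma adjusted p = 2.38e-05) and Rnf31, of the linear ubiquitin ligase, by 1.49 (limma adjusted p = 6.07e-05). In bone marrow Rnf31 rose by 1.014 (limma adjusted p = 0.00475), Rbck1, of the same ligase, by 0.89 (limma adjusted p = 0.00268), and Mapkapk2, a kinase that phosphorylates RIPK1, by 1.17 (limma adjusted p = 0.0053). Tnfaip3 was called in bone marrow too, with 1.10 to 1.64 when a library was left out. Mapkapk2 was also called in fetal liver, but only in 13 of 21 alternatives, with 0.40 to 0.96 when a library was left out.

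Among 10 other caspases and apoptosome genes, 4 rose and 1 fell in fetal liver (median 0.19), and 3 fell in bone marrow (median -0.07). Casp12, which lies 8647 bases from Casp4 in the same cluster, rose by 2.00 ± 0.16 in fetal liver (limma adjusted p = 3.02e-07), from 35.3 to 146.6 CPM. Cycs, which encodes cytochrome c, fell by 1.20 in fetal liver (limma adjusted p = 0.000141) and by 0.55 in bone marrow (limma adjusted p = 0.0474). The bone marrow call held in 10 of 21 alternatives, with -0.37 without WT bone marrow replicate 1 (limma adjusted p = 0.157) and a limma adjusted p of 0.121 without ETV6-RUNX1 bone marrow replicate 2. Apaf1, the scaffold of the apoptosome, rose by 0.61 in fetal liver (limma adjusted p = 0.035), a call that held in 13 of 21 alternatives. It was 0.33 with quantile scaling (limma adjusted p = 0.159) and was lost without WT fetal liver replicate 2 or 3 or any of the ETV6-RUNX1 fetal liver libraries. The count of 4 was 1 with quantile scaling, with the replicate block, with no filter, and on leaving out either WT fetal liver replicate 3 or replicate 1 of ETV6-RUNX1 fetal liver. In bone marrow Casp6, an executioner caspase gene, fell by 0.53 (limma adjusted p = 0.00884).

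The genes nearest in pattern to the 3 widest-ranging members were found by the root-mean-square difference of centred log2(CPM + 1) values over the 12 libraries. For Il18 they were Psmb8 (0.242), Psmb9 (0.262) and B2m (0.272), and for Casp1 they were Psmb9 (0.187), B2m (0.240) and Casp12 (0.240). Psmb8 and Psmb9 encode immunoproteasome subunits and B2m the light chain of MHC class I. For Casp4 they were Sat1 (0.143), F11r (0.169) and Ncf4 (0.170).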

How the data were processed

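RNA of cultured HSCs was sequenced in 12 libraries. Per the labels' protocols, RNA was purified with a Norgen kit and libraries were made with a SMARTer stranded total RNA kit. The submitters' processing notes name STAR 2.5.1a, featureCounts 1.4.6-p5, Salmon 0.8.2, edgeR, limma and the build GRCm38, without their roles. The authors deposited CPM per gene in 1 table. All values were whole multiples of a step per library (tolerance 0.01 reads), from which reads and totals of 32.3 to 64.5 M were recovered. Of 40757 entries, 276 repeated an identifier and were kept once. The main test was limma 3.58.1 (R 4.3.3) with a mean-variance trend on log2(CPM + 1), 1 coefficient per group and 8 residual degrees of freedom, with two-sided p-values adjusted over 14271 genes in each of 5 comparisons. The scripts were tested on simulated data. Alternatives were a pseudocount of 0.1, no filter, a mean of at least 5 CPM, median-of-ratios and quantile scaling, the replicate number as a block, edgeR 4.0.16 and DESeq2 1.42.0 on recovered reads, only the 6 libraries compared, and leaving out each library. Positions and lengths are from GENCODE M21 (GRCm38), promoters from RefSeq. Floors cover counting error only. The members and lists were chosen with earlier results of these data known. From each list at most 3 called genes per genotype comparison were named, by smallest adjusted p, and 1 gene so chosen is not reported here.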

Additional observations from a re-analysis of the deposited data

Results flagged for a closer look

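For these genes the effect of ETV6-RUNX1 differed between fetal liver and bone marrow by the limma interaction test, which adds no libraries to the genotype comparisons. Values are the log2 effect in fetal liver minus that in bone marrow. Among the pyroptosis and necroptosis genes they were 1.54 for Casp1, 1.31 for Casp4, 1.10 for Casp8, 0.86 for Gsdmd and 0.90 for Mlkl. Over all genes tested, 9.19% passed this test. Of the 24 pathway genes named, 10 passed, beside 15 of all 81 tested. The 24 were named by their genotype tests in these same libraries, so their share is not a separate result. The sensors and partners Nlrc5, Aim2 and Txnip had 2.92, 1.12 and 0.99 (limma adjusted p = 4.2e-05, 0.00699 and 0.024). Ninj1 had -1.41 (limma adjusted p = 0.000321), with a fall in fetal liver and a rise in bone marrow. Il18bp had 2.89 and Il1r1 -1.89 (limma adjusted p = 0.000825 and 0.0175). Tnfsf10 had 1.99, Zbp1 3.53 and Traf5 1.06 (limma adjusted p = 0.00411, 0.00934 and 0.0163). The Zbp1 value was 5.78 with a pseudocount of 0.1 and 7.07 with edgeR, and its limma adjusted p was 0.0615 with no filter. Casp12 had 1.81 (limma adjusted p = 0.000245). Groups of 3 are too small for the test of single outlying libraries.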

How the results depend on the processing

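The 7 rises in fetal liver were called under every one of the 21 alternatives, and edgeR added Ripk3 as an eighth gene. In bone marrow the count of 3 fell to 1 with no filter, 1 with median-of-ratios scaling, 1 with edgeR and 1 with DESeq2, the last 3 being Ripk3 as lower, and to 0 with only the 6 libraries compared. It ranged from 0 to 4 when a library was left out, with 0 without WT bone marrow replicate 2, 0 without WT bone marrow replicate 3 and 1 without ETV6-RUNX1 bone marrow replicate 3. Over all genes the bone marrow count was 1601 with only the 6 libraries compared and 1520 to 2924 leaving out a library, 1520 without ETV6-RUNX1 bone marrow replicate 2. The interaction count was 767 with no filter and 731 to 2332 leaving out a library, and that of WT sources 868 to 2781. The interaction called 4 to 6 of the members.

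The share of higher calls depended on the scaling. In bone marrow it was 74.5%, but 53% with median-of-ratios and 48.5% with quantile scaling. In fetal liver it was 57.6%, but 42% with quantile scaling. For ETV6-RUNX1 sources it was 36.3%, but 57.8% with median-of-ratios scaling. The median of all genes in bone marrow moved from 0.13 to 0.01 with the latter.

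Values near 0 changed sign. For the Ripk1 interaction these were 0.0609 (median-of-ratios), 0.0652 (edgeR) and 0.0791 (DESeq2), for the Ripk3 interaction -0.0205 (quantile), for Gsdmd between ETV6-RUNX1 sources 0.16, 0.16 and 0.16 in that order and 0.0138 (quantile), and for Ripk1 between these sources 0.0066, 0.0052 and 0.0118. Leaving out a library gave -0.12 to 0.19 for Ripk1, -0.0816 to 0.0819 for Ripk3 and, for Pycard, -0.0648 to 0.29 in the interaction, and -0.11 to 0.10 for Gsdmd between ETV6-RUNX1 sources. The cause of these changes was not tested.

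For the pathway genes, whose alternatives were chosen after seeing the data, the bone marrow count of 26 was 15 with no filter, 17 with only the 6 libraries compared and 15 to 27 when a library was left out. The interaction count of 15 was 7 with no filter and 9 to 25 leaving out a library, and no named gene changed sign.

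Replicate numbers did not pair the libraries: same-numbered deviations correlated at -0.085 to 0.221 in fetal liver and -0.404 to 0.118 in bone marrow, and 1 of 12 libraries correlated best with its own number. With the replicate block, 5838 genes were called in fetal liver, 2334 in bone marrow and 1033 in the interaction, and 7, 2 and 5 of the members.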
